A study of Mus musculus with 15 samples.

Results

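Heme and iron-sulfur clusters are the main forms in which cells use iron. Both are begun in mitochondria: heme is built from glycine and succinyl-CoA by a chain of enzymes that ends with the insertion of iron into protoporphyrin, and iron-sulfur clusters are assembled on a scaffold protein from iron, from sulfur taken from cysteine, and from electrons passed along by ferredoxin and ferredoxin reductase. Clusters for cytosolic and nuclear proteins are completed by a separate cytosolic pathway. Differentiating adipocytes build up mitochondria, whose respiratory chain is rich in both cofactors.

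The genes described here were 30 mouse genes taken by symbol from the 26301 genes in the count files. They comprised 2 carriers that bring iron into mitochondria, 8 genes of heme synthesis, 14 of mitochondrial and 6 of cytosolic iron-sulfur cluster assembly. The rule for them uses gene names and no measured value. All 30 were found, and 29 had enough reads to be tested. The exception was Glrx5, a mitochondrial glutaredoxin that hands clusters on, with group means between 0.301 and 0.674 CPM (counts scaled to a common library size).

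RNA-seq was run on 3T3-L1 cells, a mouse preadipocyte line, on day 2 after a switch to medium with insulin, dexamethasone and IBMX, the inducers of adipocyte differentiation. The 5 groups of 3 libraries, 15 in all, came from lines made by retroviral infection and antibiotic selection. The knockdown set held cells with a control retroviral vector (sh-Empty) and cells with a short hairpin RNA to the mRNA of JMJD1A, an iron-dependent demethylase of histone H3 lysine 9 (sh-Jmjd1a). In the rescue set all 3 groups carried that hairpin and also expressed LacZ as a control, wild-type JMJD1A [JMJD1A(WT)], or JMJD1A(H1122A), a mutant whose iron-coordination site is defective. Thus both JMJD1A proteins were expressed from a retroviral vector and not from the gene itself. The sources used here do not say whether the 3 libraries of a group came from separate cultures, so p-values measure the spread between these libraries, which may be technical.

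Total counts ranged from 11437058 to 25523148 per library, with a median of 12916162. Kdm3a, which encodes JMJD1A, was measured at 174 ± 7.36 CPM (SD, n = 3) in control cells and 131 ± 5.75 CPM in knockdown cells, a log2 fold change of -0.42 (SE 0.0484, edgeR adjusted p = 2.91e-08). In the rescue set it was at 119 ± 2.67 CPM with LacZ, 1697 ± 69.0 CPM with JMJD1A(WT) and 2213 ± 90.1 CPM with JMJD1A(H1122A), so the mutant was expressed above the wild type, by a log2 fold change of 0.38 (edgeR adjusted p = 3.94e-12). Markers of cell state moved with the groups. The summed level of 6 adipocyte markers was 4934 to 5032 CPM in sh-Empty, 2605 to 2743 in sh-Jmjd1a, 3307 to 3391 with LacZ, 3731 to 4091 with JMJD1A(WT) and 2581 to 2683 with JMJD1A(H1122A), and each of the 6 was called in all 4 comparisons below. The sum of 5 preadipocyte and fibroblast markers was 7427 to 7546 CPM in sh-Empty and 12680 to 13370 in sh-Jmjd1a cells, with 3 called higher and 1, Dlk1, called lower, and ran from 15100 to 17240 over the rescue set. Among the 8 erythroid markers found in the files, Gata1, Hba-a2 and Hbb-b1 were at 0 in every library and none exceeded 1.70 CPM. No macrophage marker exceeded 3.39 CPM and no endothelial marker 0.587 CPM, and the 4 myoblast markers were at 0. The part of the differentiation state in the changes described below was not tested, and in bulk RNA fewer cells of a type and less RNA per cell cannot be told apart.

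The promoters of 3 genes are shown because these were the only members called both on knockdown and between the mutant and the wild-type protein: Fdxr, Isca1 and Cpox. The stretches are from RefSeq on GRCm38.p6, start 250 bases before the RefSeq transcription start and read 5′ to 3′ on the strand of the gene. They end before the transcript start, which for Fdxr and Isca1 is that of the GENCODE M1 annotation, upstream of the RefSeq start. The last base printed lies 82 bases before the RefSeq start for Fdxr, 22 for Isca1 and 1 for Cpox. They cover chr11:115277051-115277219 (minus strand) for Fdxr, chr13:59769811-59770039 (minus strand) for Isca1 and chr16:58669958-58670207 (plus strand) for Cpox. Of 6 motifs searched on both strands, capitals mark matches to all but the direct repeat described below, whose spacer base stays in lower case.
Fdxr: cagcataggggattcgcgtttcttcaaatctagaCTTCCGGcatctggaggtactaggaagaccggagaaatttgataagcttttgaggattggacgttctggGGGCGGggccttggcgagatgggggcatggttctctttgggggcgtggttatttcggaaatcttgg
Isca1: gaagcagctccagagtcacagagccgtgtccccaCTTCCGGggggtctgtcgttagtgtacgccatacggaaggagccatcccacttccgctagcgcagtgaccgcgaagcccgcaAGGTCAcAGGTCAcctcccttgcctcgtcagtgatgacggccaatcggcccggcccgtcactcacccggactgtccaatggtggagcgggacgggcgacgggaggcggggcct
Cpox: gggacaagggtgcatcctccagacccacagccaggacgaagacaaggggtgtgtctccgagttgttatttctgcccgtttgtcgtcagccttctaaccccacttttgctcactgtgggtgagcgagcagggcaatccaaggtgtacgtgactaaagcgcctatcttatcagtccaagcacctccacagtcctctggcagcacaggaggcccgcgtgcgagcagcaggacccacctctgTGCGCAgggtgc

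The Fdxr promoter held a GC box (GGGCGG) that begins 147 bases before the RefSeq start and, on the opposite strand, the ETS motif CCGGAAG at 216 bases. In the Isca1 promoter the same ETS motif lay at 216 bases, and the nuclear receptor core AGGTCA occurred at 134 and again at 127 bases, 1 base apart. That spacing makes the direct repeat AGGTCANAGGTCA, which Isca1 held alone among 33 windows of 25 members and which 13 of 32851 RefSeq promoter windows of 300 bases held (0.0396%). The full 300-base window of Isca1 also held the NRF1 core TGCGCA, outside the printed stretch. The Cpox promoter held only that core, at 12 bases. Over the whole 300-base windows, GC boxes were in 69.7% of member windows and 35.7% of all windows, ETS motifs in 21.2% and 8.86%, NRF1 cores in 18.2% and 7.76%, the E-box CACGTG in 24.2% and 7.15%, and single AGGTCA motifs, which the direct repeat also contains, in 15.2% and 16.3%. The set of all windows was not limited to genes expressed here, and no set of like level or base content was compared. These are matches of letters, and no binding was measured here.

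Levels of different genes were compared as CPM per kilobase of annotated exon (RPKM). Hspa9, the mitochondrial chaperone of the HSP70 family that releases new clusters from their scaffold but also drives protein import, was the highest in every group, with group means from 101 to 120.0 RPKM. The scaffold Iscu, the cytosolic ATPase Nubp2, the late-acting factor Isca2 and the enzymes Fech and Alad followed it in sh-Empty cells, each between 24.8 and 33.1 RPKM. Glrx5, Nubpl, Iba57 and Lyrm4 were the lowest there, between 0.724 and 3.06 RPKM. Fdxr stood at rank 8 of 30 in sh-Empty cells (19.2 RPKM), at 23 in sh-Jmjd1a cells (5.88 RPKM), and at 22, 16 and 23 with LacZ, JMJD1A(WT) and JMJD1A(H1122A). Cpox went the other way, from rank 20 in sh-Empty (7.02 RPKM) to 13 in sh-Jmjd1a cells (11.2 RPKM).

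**Figure D1:**
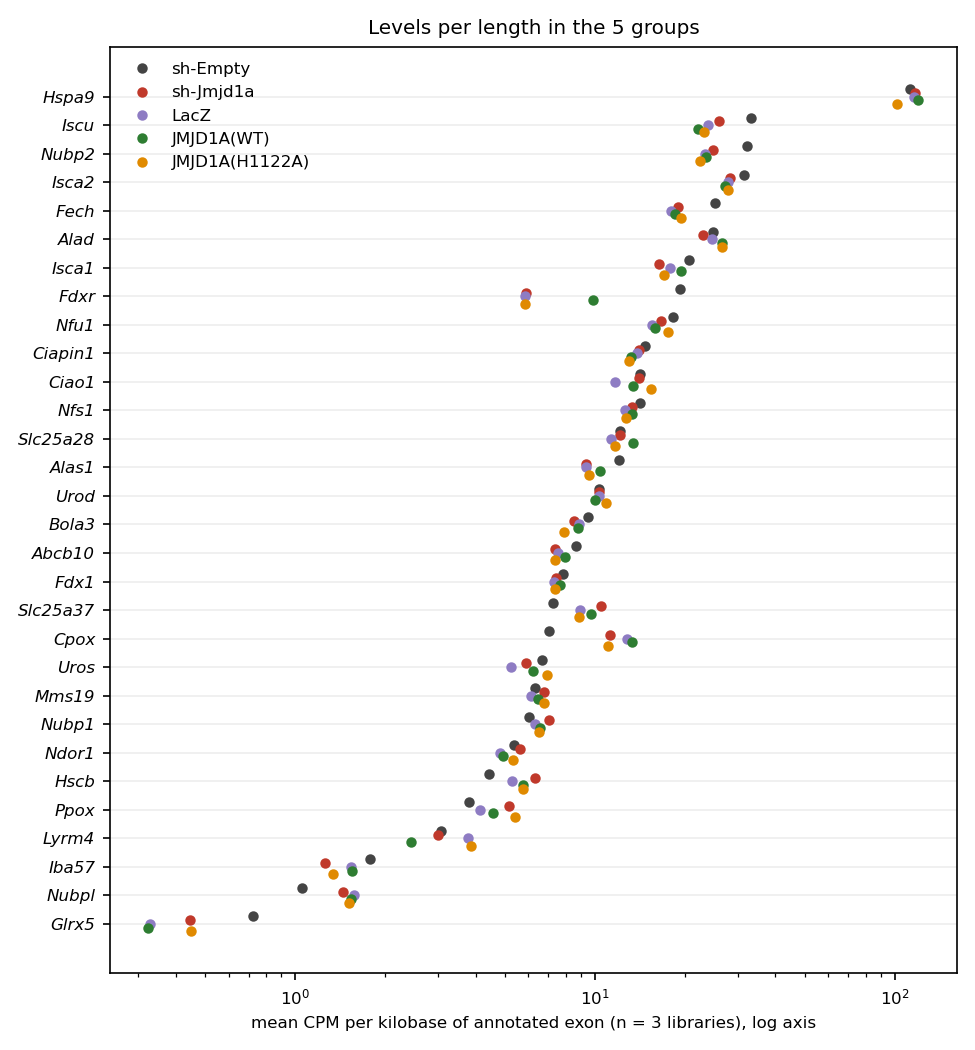
Mean level of each of the 30 genes in the 5 groups (n = 3 libraries each), as CPM per kilobase of annotated exon on a log axis, with genes in the order of their sh-Empty level. Hspa9 lies above 100 RPKM in every group, and Fdxr is the gene whose sh-Empty point stands farthest from its other groups among genes above 5 RPKM.

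On knockdown, 12 of the 29 tested members changed, 4 higher and 8 lower, at an adjusted p under 0.05 in the quasi-likelihood test of edgeR (Benjamini-Hochberg, over all genes). Of all 12272 genes tested, 46.2% were called, 22.3% higher and 23.9% lower. The 3 libraries of a group stood wholly apart from those of the other in 6 members higher and 8 lower on knockdown, as they did in 53.2% of all genes, 26.8% higher and 26.4% lower. The median log2 fold change was -0.10 over the members and -0.003 over all genes, and the median size of a change was 0.19 and 0.22. The change of largest size was that of Fdxr. The other called changes lay between -0.56 and 0.67 on the log2 scale.

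**Figure D2:**
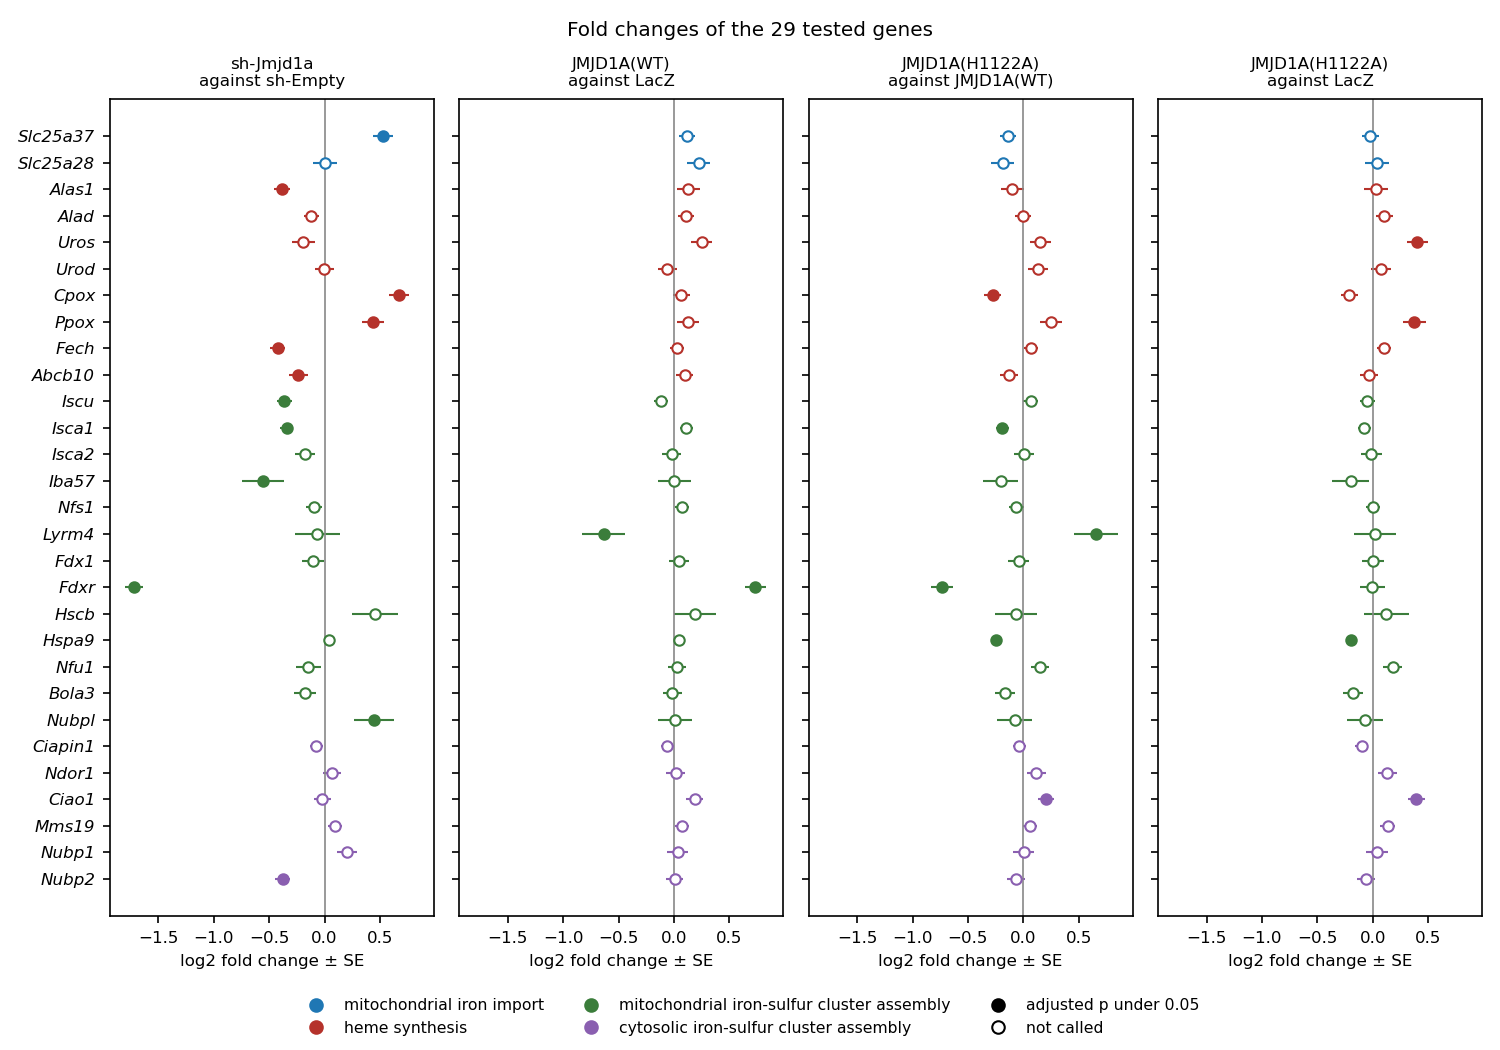
Log2 fold change ± SE of the 29 tested genes in the 4 comparisons (edgeR, n = 3 libraries per group), colored by pathway, with filled points for an adjusted p under 0.05. Fdxr is at -1.72 in the panel at the left, and at 0.74 and -0.74 in the next panels, while most other genes stay within 0.5 of zero.

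The iron carriers mitoferrin 1 and mitoferrin 2 move iron across the inner mitochondrial membrane. Slc25a37, which encodes mitoferrin 1, was at 29.7, 31.5 and 29.1 CPM in the 3 sh-Empty libraries and 37.3, 45.2 and 48.1 CPM in the 3 sh-Jmjd1a libraries. Every knockdown library was above every control library, and the log2 fold change was 0.53 (SE 0.0860, edgeR adjusted p = 9.65e-06). Slc25a28, which encodes the widely expressed mitoferrin 2, had means of 18.4 ± 2.41 and 18.4 ± 0.806 CPM (SD, n = 3) with overlapping groups, a log2 fold change of 0.01 (edgeR adjusted p = 0.978).

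In heme synthesis, 3 of 8 genes fell, 2 rose and 3 were not called. Alas1 encodes the enzyme of the rate-setting step outside red cells. Its level was 51.0, 50.2 and 54.4 CPM in sh-Empty and 38.4, 43.8 and 38.5 CPM in sh-Jmjd1a libraries. The groups did not overlap, and the log2 fold change was -0.38 (SE 0.0719, edgeR adjusted p = 7.04e-05). Its exons overlap 114 bases of 4930500F10Rik on the opposite strand. The next enzymes showed smaller differences. Alad, which joins aminolevulinate into porphobilinogen, had a log2 fold change of -0.12 (edgeR adjusted p = 0.154), Uros, which closes the porphyrin ring, -0.19 (edgeR adjusted p = 0.122), and Urod, which trims its side chains, -0.003 (edgeR adjusted p = 0.984), none of them called.

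Cpox and Ppox, the oxidases that act next and lead to protoporphyrin, both rose. Cpox was at 25.4, 21.2 and 20.5 CPM in sh-Empty and 34.7, 38.8 and 33.6 CPM in sh-Jmjd1a libraries. All knockdown libraries were clearly above all controls, with a log2 fold change of 0.67 (SE 0.0922, edgeR adjusted p = 6.9e-07). Ppox was at 16, 17.6 and 17.7 CPM in the controls and 21.9, 23.0 and 25.3 CPM in the knockdown libraries, again without overlap, with a log2 fold change of 0.44 (SE 0.0995, edgeR adjusted p = 0.000616). Ppox shares 791 bases of exon with B4galt3 on the opposite strand, and the strand setting of the counting was not given in the sources used here, so reads of the pair may be mixed.

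Fech, the ferrochelatase that puts iron into protoporphyrin, fell. Its values were 68.5, 75.2 and 74.4 CPM in sh-Empty and 58.2, 50.4 and 55.6 CPM in sh-Jmjd1a libraries. No library of either group reached the other, and the log2 fold change was -0.42 (SE 0.0653, edgeR adjusted p = 4.22e-06). Abcb10, an inner-membrane transporter needed for heme formation, had 36.7, 41.6 and 33.5 CPM in the controls and 32.4, 31.0 and 31.7 CPM in the knockdown libraries, a log2 fold change of -0.24 (SE 0.0839, edgeR adjusted p = 0.0222). The groups did not overlap, but DESeq2 did not call it, nor did edgeR when replicate 1 or 2 of sh-Empty or replicate 2 of sh-Jmjd1a was left out, with values from -0.24 to -0.15. In this chain of reactions, Alas1 at its start and Fech at its end were lower in knockdown cells, and Cpox and Ppox, which act just before Fech, were higher.

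In mitochondrial iron-sulfur cluster assembly, 4 of 13 tested genes fell and 1 rose. Fdxr, at chr11:115129338-115138364 on the minus strand of mm9 (GENCODE M1), encodes ferredoxin reductase, which passes electrons from NADPH to the mitochondrial ferredoxins. It was at 56.1, 50.7 and 55.0 CPM in the 3 sh-Empty libraries and 17.3, 16.8 and 15.5 CPM in the 3 sh-Jmjd1a libraries. The lowest control was far above the highest knockdown library. With means of 53.9 ± 2.82 and 16.5 ± 0.928 CPM (SD, n = 3), the log2 fold change was -1.72 (SE 0.0836, edgeR adjusted p = 4.47e-16), and it stayed between -1.76 and -1.67 when any 1 library was left out. Fdx1, a ferredoxin that takes the electrons from this reductase, had means of 24.2 ± 2.29 and 23.0 ± 2.48 CPM and a log2 fold change of -0.10 (edgeR adjusted p = 0.423), which was not called.

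The core of the assembly machine gave small changes. Iscu, the scaffold on which clusters form, was at 73.6, 66.1 and 76.1 CPM in sh-Empty and 59.2, 57.4 and 53.0 CPM in sh-Jmjd1a libraries. These groups did not overlap, and the log2 fold change was -0.36 (SE 0.0659, edgeR adjusted p = 4.16e-05). Nfs1, the cysteine desulfurase that supplies sulfur, and its partner Lyrm4 were not called, with log2 fold changes of -0.10 (edgeR adjusted p = 0.289) and -0.07 (edgeR adjusted p = 0.819). Exons of Nfs1 overlap Romo1 on the opposite strand and Cpne1 and Rbm12 on its own. The chaperone pair that moves clusters off the scaffold was not called either, Hspa9 at 0.04 (edgeR adjusted p = 0.403) and its co-chaperone Hscb at 0.45 (edgeR adjusted p = 0.0779), the latter at only 4.02 ± 0.852 and 5.70 ± 1.03 CPM (SD, n = 3).

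Among the factors that make and place the larger clusters, Isca1 was at 90.0, 86.2 and 87.9 CPM in sh-Empty and 70.3, 73.4 and 66.4 CPM in sh-Jmjd1a libraries. The knockdown libraries were all lower, with a log2 fold change of -0.34 (SE 0.0572, edgeR adjusted p = 1.43e-05). Its partner Isca2 was not called at -0.18 (edgeR adjusted p = 0.123). Iba57, which acts with both, had 6.26, 8.51 and 11.3 CPM in sh-Empty and 6.33, 6.75 and 5.34 CPM in sh-Jmjd1a libraries, so the groups overlapped. Its log2 fold change of -0.56 (SE 0.189, edgeR adjusted p = 0.0171) rested on sh-Empty replicate 3, without which it was -0.28 and not called. Nubpl, an assembly factor for respiratory complex I, was at 5.22, 5.45 and 5.05 CPM in the controls and 5.64, 7.87 and 7.89 CPM in the knockdown libraries, with a log2 fold change of 0.45 (SE 0.179, edgeR adjusted p = 0.0425) that was lost under DESeq2 and without any of 5 single libraries (values from 0.38 to 0.48). The delivery factors Nfu1 and Bola3 were not called, at -0.15 (edgeR adjusted p = 0.305) and -0.18 (edgeR adjusted p = 0.153).

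Of the 6 cytosolic genes, Nubp2 alone was called on knockdown. It encodes a scaffold ATPase of the cytosolic pathway and was at 45.5, 45.5 and 46.8 CPM in sh-Empty and 33.5, 36.2 and 36.9 CPM in sh-Jmjd1a libraries. The groups were well apart, with a log2 fold change of -0.38 (SE 0.0719, edgeR adjusted p = 7.27e-05). Its partner Nubp1 had the opposite sign at 0.20 (edgeR adjusted p = 0.072) and was not called, and its exons overlap 1341 bases of Fam18a on the opposite strand. The electron-transfer pair Ndor1 and Ciapin1 gave 0.06 (edgeR adjusted p = 0.543) and -0.07 (edgeR adjusted p = 0.308). The targeting factors Ciao1 and Mms19, which bring clusters to their final proteins, gave -0.02 (edgeR adjusted p = 0.855) and 0.10 (edgeR adjusted p = 0.217). None of these 4 was called. Exons of Mms19 share 709 bases with Zdhhc16, those of Ndor1 300 with Tmem203 and those of Ciapin1 38 with Coq9, in each case on the opposite strand.

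**Figure D3:**
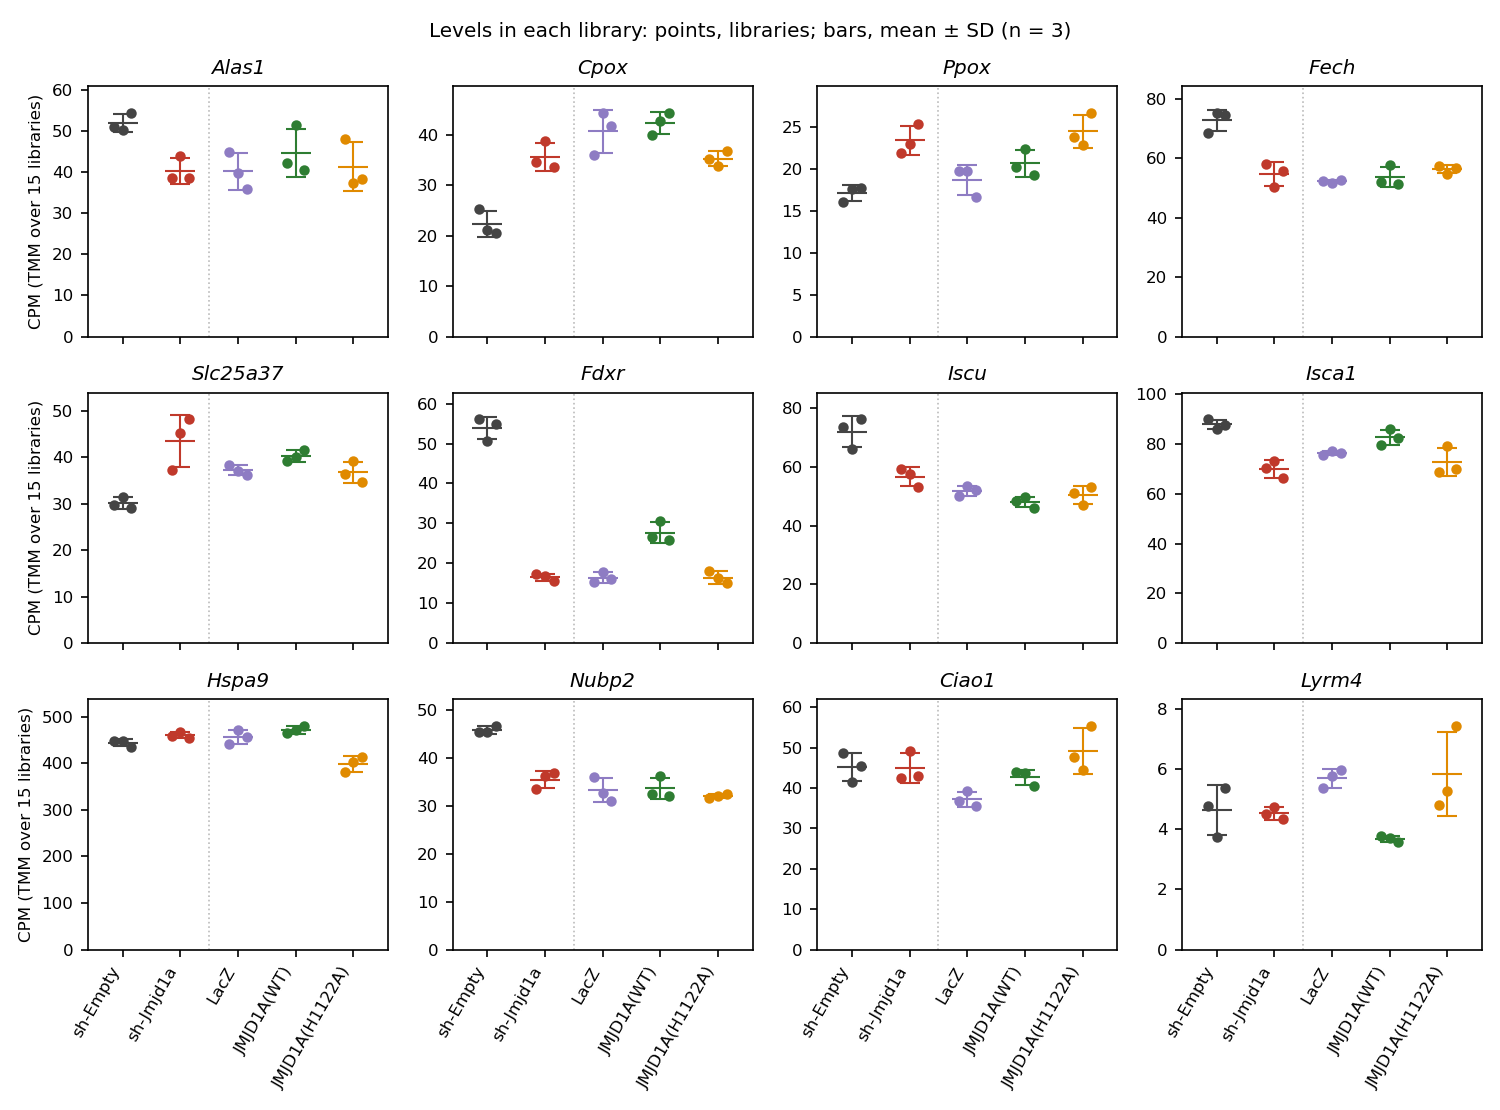
Level of 12 of the genes in each of the 15 libraries, as CPM on 1 scale for all libraries, with points for libraries and bars for the mean ± SD (n = 3), and a dotted line between the knockdown and the rescue set. Fdxr lies above 50 CPM in the sh-Empty libraries only, between 25 and 31 CPM with JMJD1A(WT) and below 19 CPM in the other 3 groups.

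Re-expression of wild-type JMJD1A in knockdown cells changed 2 members against LacZ, Fdxr higher and Lyrm4 lower, while 9.5% of all 12557 genes tested were called, 4.98% higher and 4.52% lower. Libraries stood apart in 5 members higher and 2 lower, and in 22.9% of all genes, 11.5% higher and 11.4% lower. The 3 rescue comparisons share libraries, so their values stand side by side and are not independent of each other. Fdxr was at 15.4, 17.8 and 16.1 CPM in the LacZ libraries and 26.7, 30.6 and 25.8 CPM in the JMJD1A(WT) libraries. All 3 JMJD1A(WT) libraries were above all 3 LacZ libraries, with a log2 fold change of 0.74 (SE 0.0978, edgeR adjusted p = 2.09e-07). Even so, its mean of 27.7 ± 2.59 CPM (SD, n = 3) with JMJD1A(WT) was well below the 53.9 ± 2.82 CPM of sh-Empty cells, a difference across the sets that was not tested. The summed level of adipocyte markers likewise stood above that of LacZ in every JMJD1A(WT) library, and its part in the change of Fdxr was not tested.

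Lyrm4, a small protein that steadies the desulfurase, was at 5.36, 5.76 and 5.97 CPM with LacZ and 3.76, 3.70 and 3.58 CPM with JMJD1A(WT). Its counts ran from 44 to 92 per library over all groups. LacZ and JMJD1A(WT) did not overlap, and the log2 fold change was -0.63 (SE 0.194, edgeR adjusted p = 0.0275). Leaving out replicate 2 or 3 of LacZ, or replicate 1 or 3 of JMJD1A(WT), ended this call, with values from -0.65 to -0.60. Of the 12 members called on knockdown, none but Fdxr was called here. Their values include 0.13 for Alas1, 0.03 for Fech, 0.07 for Cpox, -0.12 for Iscu and 0.11 for Isca1. Uros was next in size, with 17.5, 18.8 and 20.1 CPM against 22.7, 20.9 and 22.9 CPM and no overlap, at 0.25 (edgeR adjusted p = 0.0986).

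Between the mutant and the wild-type protein, 6 members differed, 2 higher and 4 lower with JMJD1A(H1122A), against a background of 23.8% of all genes, 12.1% higher and 11.7% lower. Libraries stood apart in 3 members higher and 7 lower, and in 37% of all genes, 19% higher and 18% lower. Fdxr was at 18.1, 16.2 and 14.96 CPM with JMJD1A(H1122A), all below the 3 JMJD1A(WT) libraries, with a log2 fold change of -0.74 (SE 0.101, edgeR adjusted p = 1.42e-07). Its libraries overlapped those with LacZ, and the log2 fold change of JMJD1A(H1122A) against LacZ was -0.002 (SE 0.114, edgeR adjusted p = 0.996). Fdxr was the only member with all 3 calls, that is, lower on knockdown, up again with the wild-type protein and lower with the mutant than with the wild type, a pattern of 296 of the 12202 genes tested in both sets (2.43%). The adipocyte marker sum, unlike Fdxr, was lower with the mutant than with LacZ in every library. The reverse pattern, held by 2.07% of genes, was found in no member. The study also picked Fdxr by such calls on these libraries, together with histone methylation near transcription starts from separate libraries. The expression part of its selection is thus not independent evidence.

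Hspa9 was at 380, 403 and 413 CPM with JMJD1A(H1122A), 464, 471 and 480 CPM with JMJD1A(WT) and 442, 471 and 457 CPM with LacZ. The mutant libraries were below all others of the set, with log2 fold changes of -0.25 (SE 0.0380, edgeR adjusted p = 1.42e-06) against JMJD1A(WT) and -0.20 (SE 0.0381, edgeR adjusted p = 0.000258) against LacZ. It had not been called on knockdown or with JMJD1A(WT) against LacZ. Isca1 was at 68.9, 79.1 and 70.0 CPM with the mutant and 79.8, 85.9 and 82.6 CPM with the wild type, just apart, with a log2 fold change of -0.19 (SE 0.0578, edgeR adjusted p = 0.0127) that was lost without JMJD1A(H1122A) replicate 1 or 3 (-0.15 and -0.16).

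Cpox was at 35.2, 33.9 and 36.9 CPM with the mutant and 39.9, 42.8 and 44.3 CPM with the wild type, a log2 fold change of -0.28 (SE 0.0780, edgeR adjusted p = 0.0065) that was -0.23 and not called without JMJD1A(WT) replicate 3. Thus Cpox was higher on knockdown yet lower with the mutant than with the wild type. Lyrm4 was at 4.81, 5.28 and 7.44 CPM with the mutant, above all JMJD1A(WT) libraries, with a log2 fold change of 0.65 (SE 0.200, edgeR adjusted p = 0.0124). Without JMJD1A(H1122A) replicate 3 it was 0.46 and without JMJD1A(WT) replicate 3 it was 0.63, neither called.

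Ciao1 was at 36.9, 39.2 and 35.5 CPM with LacZ, 43.9, 43.6 and 40.6 CPM with JMJD1A(WT) and 47.8, 44.4 and 55.4 CPM with JMJD1A(H1122A). The LacZ libraries were the lowest and the mutant libraries the highest, with no overlap between any of the 3 groups. The log2 fold change of the mutant against the wild type was 0.20 (SE 0.0738, edgeR adjusted p = 0.0381), a call lost under DESeq2 and without JMJD1A(H1122A) replicate 1 or 3 or JMJD1A(WT) replicate 3 (0.12 to 0.22). In the fourth comparison, JMJD1A(H1122A) against LacZ, 3 members were called higher and 1 lower, beside 4.78% and 4.46% of all genes (9.24% in either direction). Libraries stood apart in 5 members higher and 1 lower, and in 25.3% of all genes, 13.5% higher and 11.8% lower. The 3 were Ciao1 at 0.39 (edgeR adjusted p = 0.00041), Uros at 0.40 (edgeR adjusted p = 0.00503) and Ppox at 0.38 (edgeR adjusted p = 0.0124), and the 1 was Hspa9, given above. Uros was at 26.3, 25.7 and 22.6 CPM with the mutant, all above LacZ. The Ppox call was lost without LacZ replicate 3 or JMJD1A(H1122A) replicate 3 (0.30 and 0.32).

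Counted over the 3 comparisons of the study, 14 of the 29 members were called in none. Called on knockdown and in neither rescue comparison were 9, of which 6 were lower (Alas1, Fech, Abcb10, Iscu, Iba57 and Nubp2) and 3 were higher (Slc25a37, Ppox and Nubpl). The remaining 6 were Fdxr, Isca1, Cpox, Lyrm4, Ciao1 and Hspa9. Whether an effect differed between the knockdown and the rescue set was not tested. Of the genes called on knockdown and not in the rescue set, Nubp2 was at 33.3 ± 2.52 CPM with LacZ beside 35.5 ± 1.81 CPM in sh-Jmjd1a and 45.9 ± 0.758 CPM in sh-Empty cells, and at 33.7 ± 2.26 CPM with JMJD1A(WT) (SD, n = 3 in each). Fech was at 52.2 ± 0.446 CPM with LacZ and 53.7 ± 3.50 CPM with JMJD1A(WT), beside 54.7 ± 3.99 CPM in sh-Jmjd1a and 72.7 ± 3.66 CPM in sh-Empty cells. Ppox, by contrast, was at 18.7 ± 1.82 CPM with LacZ and 20.6 ± 1.57 CPM with JMJD1A(WT). It was at 17.1 ± 0.968 CPM in sh-Empty and 23.4 ± 1.75 CPM in sh-Jmjd1a cells. Slc25a37 with LacZ, at 37.2 ± 1.13 CPM, lay between sh-Empty (30.1 ± 1.23 CPM) and sh-Jmjd1a cells (43.5 ± 5.59 CPM). Differences across the sets were not tested.

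Further genes of the same pathways were read from lists of other heme and iron-sulfur genes. Of 17 tested genes of heme synthesis, transport and breakdown, 3 were higher and 7 lower on knockdown, beside 22.3% and 23.9% of all genes, with a median log2 fold change of -0.16. Cox15, which makes heme A for cytochrome oxidase, was at 67.8 ± 2.01 CPM in control and 43 ± 3.68 CPM in knockdown cells (SD, n = 3), a log2 fold change of -0.66 (edgeR adjusted p = 4.18e-09), and the heme-binding membrane protein Pgrmc2 had -0.50 (edgeR adjusted p = 8.51e-10). None of the 17 was called with JMJD1A(WT) against LacZ, whereas 1 was higher and 5 lower with JMJD1A(H1122A) against JMJD1A(WT), beside 12.1% and 11.7% of all genes, the 5 with Cox15 at -0.19 (edgeR adjusted p = 0.0428) and Pgrmc2 at -0.17 (edgeR adjusted p = 0.00527) among them.

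Of 15 other genes of cluster assembly and delivery, 7 were lower on knockdown and none higher, beside 23.9% and 22.3% of all genes, with a median of -0.30 where all genes had -0.003. Grpel1, the nucleotide exchange factor of Hspa9, was at 81.5 ± 6.37 CPM in control and 54.7 ± 3.47 CPM in knockdown cells (SD, n = 3), a log2 fold change of -0.59 (edgeR adjusted p = 2.2e-08). The cytosolic glutaredoxin Glrx3 had -0.41 (edgeR adjusted p = 2.59e-07). In the rescue set, Grpel1 alone of the 15 was called, lower with the mutant than with the wild type at -0.20 (edgeR adjusted p = 0.0214).

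Among the proteins that use the clusters, 6 of 36 tested genes were higher and 14 lower on knockdown, beside 22.3% and 23.9% of all genes, with a median log2 fold change of -0.13. The genes called lower included Uqcrfs1, the Rieske protein of respiratory complex III, at -0.59 (edgeR adjusted p = 7.24e-10). Pold1, the catalytic subunit of DNA polymerase delta, was higher at 0.82 (edgeR adjusted p = 3.81e-09). Aco1, the cytosolic aconitase that becomes an iron sensor when it loses its cluster, went from 237 ± 11.9 to 125 ± 3.58 CPM, a log2 fold change of -0.94 (edgeR adjusted p = 1.02e-15), and it was called higher with JMJD1A(WT) at 0.18 (edgeR adjusted p = 0.0133) and lower with JMJD1A(H1122A) at -0.28 (edgeR adjusted p = 3.15e-05). Mocs1, an enzyme of molybdenum cofactor synthesis, did the same with -0.69 (edgeR adjusted p = 1.84e-13), 0.22 (edgeR adjusted p = 0.000344) and -0.31 (edgeR adjusted p = 3.87e-07). These were the only genes of the 37 tested in the rescue set that were called with JMJD1A(WT) against LacZ.

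Of 18 tested heme proteins, 3 were higher and 9 lower on knockdown, beside 22.3% and 23.9% of all genes, with a median log2 fold change of -0.09. All 3 calls were held by 3 of the 18, beside 2.43% of all genes. Cyp51, the sterol demethylase of cholesterol synthesis, was at 127 ± 9.98 CPM in sh-Empty, 61.3 ± 1.62 in sh-Jmjd1a, 66.3 ± 1.68 with LacZ, 97.8 ± 6.25 with JMJD1A(WT) and 53.8 ± 5.63 with JMJD1A(H1122A), with log2 fold changes of -1.06 (edgeR adjusted p = 1.32e-14), 0.55 (edgeR adjusted p = 1.72e-09) and -0.86 (edgeR adjusted p = 5.79e-15) in the 3 comparisons. Cycs, cytochrome c, had -0.65 (edgeR adjusted p = 1.48e-11), 0.17 (edgeR adjusted p = 0.035) and -0.42 (edgeR adjusted p = 1.36e-07). Cyb5b, an outer-membrane cytochrome, had -0.42 (edgeR adjusted p = 2.57e-09), 0.13 (edgeR adjusted p = 0.0428) and -0.28 (edgeR adjusted p = 1.34e-06). On knockdown, Ptgs2 and Ptgis, of prostaglandin synthesis, rose, with log2 fold changes of 2.31 (edgeR adjusted p = 5.43e-11) and 1.18 (edgeR adjusted p = 3.88e-08), and Cyc1 of complex III had -0.41 (edgeR adjusted p = 3.63e-07). As with Fdxr, the study selected Aco1, Mocs1, Cyb5b and Cyp51 by calls on these same libraries and by histone methylation from separate ones. Their expression pattern here is thus not independent evidence. Levels of these cofactors, of iron and of the proteins were not measured in these data.

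**Figure D4:**
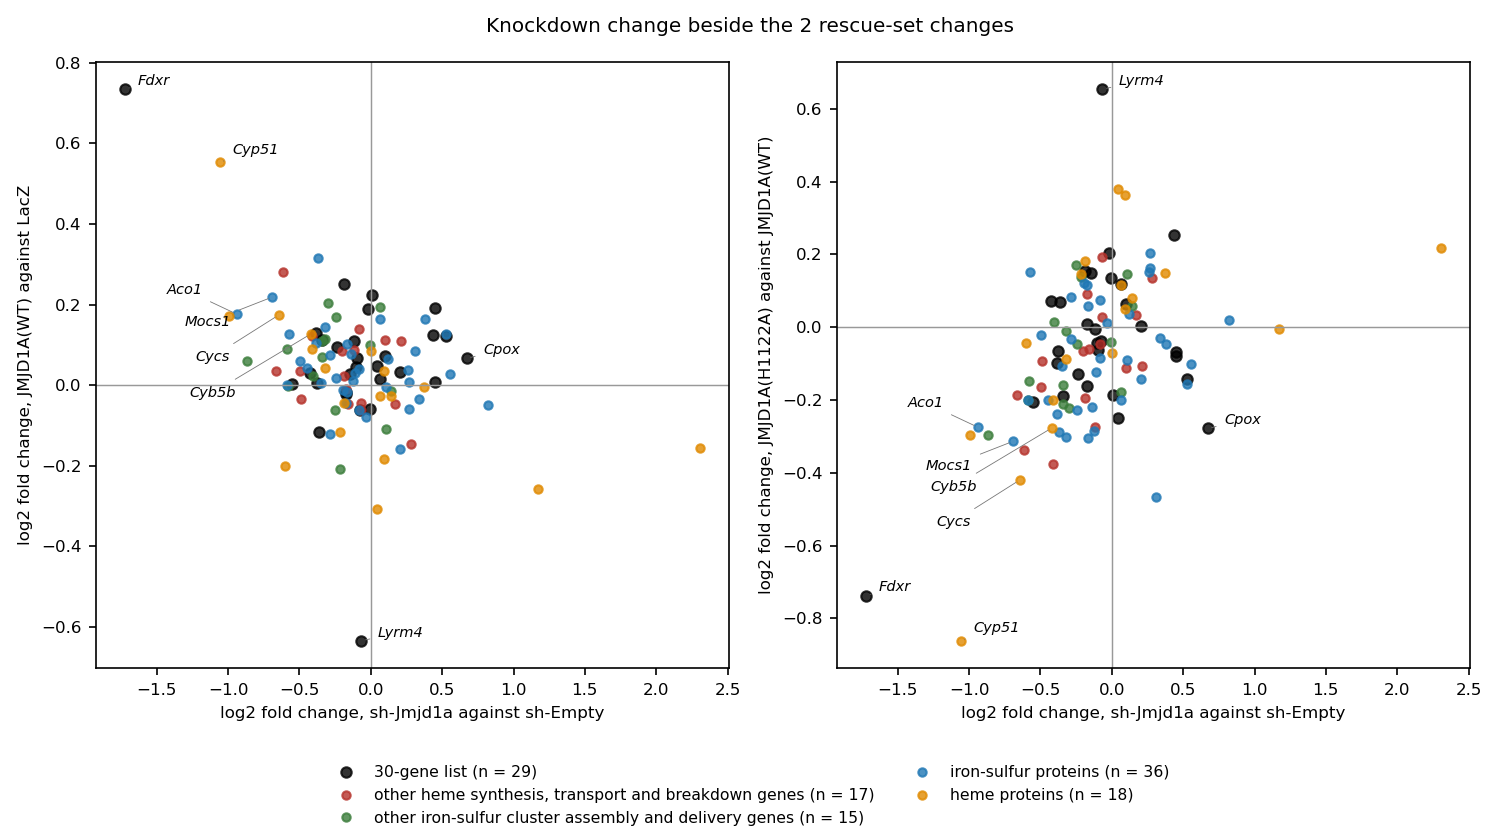
Log2 fold change on knockdown (x axis) beside the change from LacZ to JMJD1A(WT) (left) and from JMJD1A(WT) to JMJD1A(H1122A) (right), 1 point per gene, for the 29 tested members and for the other lists. Fdxr, at -1.72 on the x axis, stands apart from the other members in both panels, and Cyp51, at -1.06, is the nearest to it, while Lyrm4 is near zero on the x axis and at -0.63 and 0.65 on the y axes.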

How the data were processed

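RNA-seq libraries of poly(A) RNA from 3T3-L1 cells were analysed in 5 groups of 3. Per the labels, reads were cleaned with fastp, aligned to mm9 with HISAT2 and counted with featureCounts, and the authors deposited raw counts per gene by Entrez Gene number, 1 file per library, without normalization. The labels name a NEBNext Ultra kit and the methods of the paper a directional kit of the Ultra II series. The strand setting of the counting was not given in the sources used here.

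Symbols came from a RefSeq gene table (GRCm38.p6), used for names, and coordinates and exon lengths from GENCODE M1 (NCBIM37, the assembly of mm9). Of 26301 genes, 2110 had no symbol (0.500% of counts). Counts were filtered with filterByExpr (minimum count 10), scaled by TMM and fitted with edgeR 4.0.16 in R 4.3.3 (robust quasi-likelihood F test, Benjamini-Hochberg adjustment, threshold 0.05), with 1 fit for the 6 knockdown libraries and another for the 9 rescue libraries. SE is the size of the log2 fold change divided by the square root of F. Displayed CPM were scaled by TMM over all 15 libraries, so their ratios can differ slightly from the fitted fold changes. The method was tested on simulated data. Replicate pairs differed by more than counting noise (chi-square over its degrees of freedom, 2.07 to 5.44).

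All 30 genes were named, with, from each other list, the genes holding all 3 calls and up to 3 with the smallest adjusted p on knockdown. Values of a few of these genes are left out here. The genes, the lists and this naming rule were chosen with earlier results of these data known. The marker Dlk1, the 3 genes with printed promoters and the overlapping genes were named after their values were seen. RefSeq promoter windows of 300 bases were found for 25 of the 30 genes. The alternatives were other scalings, filters and fits, DESeq2 1.42.0, a block for the replicate number, and leaving out single libraries. Depth, at least 11437058 counts per library, limits genes of few CPM the most.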

Additional observations from a re-analysis of the deposited data

How the results depend on the processing

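Under DESeq2, 1 member and not 2 was called higher with JMJD1A(H1122A) against JMJD1A(WT), Ciao1 being lost. Of the 24 member calls in the 4 comparisons, 15 were kept under every alternative and 9 were lost under some. The alternatives were RLE scaling, DESeq2, no filter on low counts, a floor of 10 counts per library, 1 fit of all 15 libraries, the legacy quasi-likelihood method, a replicate block and each library left out. Under the settings that kept all libraries, 808 fold changes of single members stayed on the same side of the threshold, 1 gained a call and 3 lost it. No member's called fold change changed sign under any setting.

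Leaving out 1 library moved the counts within these limits. On knockdown, members called higher ranged from 3 to 5 and lower from 7 to 9, and all genes from 2353 to 2812 and from 2499 to 2776. For JMJD1A(WT) against LacZ, members higher were 1 throughout and lower 0 to 1 (Lyrm4), and all genes from 482 to 630 and from 379 to 586. For JMJD1A(H1122A) against JMJD1A(WT), members ranged from 0 to 3 (0 without JMJD1A(H1122A) replicate 3 or JMJD1A(WT) replicate 3) and from 3 to 4, and all genes from 1193 to 1643 and from 1141 to 1526. For JMJD1A(H1122A) against LacZ, members ranged from 2 to 3 and from 1 to 2 (2 without LacZ replicate 1), and all genes from 348 to 651 and from 326 to 605, the lowest of both without JMJD1A(H1122A) replicate 1. Without LacZ replicate 3 the number higher was 380.

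Deviations from the group means correlated only weakly between same-numbered libraries, at -0.03 to 0.06. In the knockdown set no library matched best with its own number. In each rescue comparison, replicates 1 and 2 of both groups matched best with their own number and replicate 3 did not. A partial pairing in the rescue set was thus not excluded, and the main fits used no block. With the replicate block, the members called were 4 higher and 8 lower on knockdown, 1 and 1 for JMJD1A(WT) against LacZ, 2 and 4 for JMJD1A(H1122A) against JMJD1A(WT), and 3 and 1 for JMJD1A(H1122A) against LacZ. Over all genes it called 2635 higher and 2790 lower on knockdown, 710 and 683 for JMJD1A(WT) against LacZ, 1673 and 1610 for JMJD1A(H1122A) against JMJD1A(WT), and 731 and 682 for JMJD1A(H1122A) against LacZ.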
